A study of Homo sapiens with 6 samples.

Results

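The 47 genes described here encode enzymes that make, use and recycle glutathione, together with thioredoxin reductases, export pumps and other detoxification enzymes. Some of them, but not all, are known targets of the transcription factor NRF2. The 47 genes were chosen by name and function from the 23686 genes in the count tables. Of the 47 genes, 42 had at least 10 reads in at least 3 of the 6 libraries, and the same 42 passed the filter of the statistical test. None of them passed through the libraries of 1 group only.

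Glutathione is the main small thiol of the cytosol. Glutathione peroxidases spend it to reduce peroxides, transferases join it to reactive compounds, glutaredoxins use it to release protein disulfides, and glutathione reductase restores it with NADPH. NRF2 is held at a low level by KEAP1 and accumulates when oxidants or electrophiles modify KEAP1. It then binds antioxidant response elements in genes such as NQO1, HMOX1, GCLM and TXNRD1, which is why these genes are widely read as markers of oxidative stress.

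RNA was sequenced from HEK293 cells, an established human embryonic kidney line, that carried green fluorescent protein (GFP). In the ROS co-culture group (3 libraries), GFP+ cells had been grown for 10 h beside DAAO-bearing HEK293 cells, which make reactive oxygen species (ROS) from the added 25 µM D-alanine, and were then sorted for GFP. DAAO commonly stands for D-amino acid oxidase, whose reaction releases hydrogen peroxide. The control group (3 libraries), titled Wt controls, held sorted HEK293 cells whose genotype label is GFP+, as in the co-culture group; no other allele is labelled in either group. The same treatment text is attached to both groups, so whether the controls received D-alanine or had partner cells is not given in the sources used here. The comparison sets GFP+ cells grown beside ROS-producing cells against these controls. Effects of ROS, of co-culture itself and of D-alanine cannot be told apart from what is given here. The labels do not say whether replicates were separate cultures, so p-values measure only the spread between these libraries. In bulk RNA, fewer cells with a transcript and less of it per cell cannot be told apart.

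The libraries held 19091085 to 36250314 reads assigned to genes on the expected strand. Over 4907 well-read genes, the median share of reads on the opposite strand was 0.124% and 0.211% in co-culture libraries 2 and 3, and 1.57% to 1.75% in the other 4 libraries. This strand class cannot be separated from the group except through co-culture library 1. A fit with that class as a term therefore compares co-culture library 1 alone with the controls. Values from that fit are given, beside the gene or with the other settings, where it moves a log2 fold change by over 1.5 times. All 6 HEK293 markers examined (VIM, NEFL, NEFM, PAX2, LHX1 and GATA3) were detected in every library. Their summed level was 1236 to 1282 CPM (read counts scaled to a common library total, after TMM normalisation) in the controls and 1573 to 1633 CPM in co-culture, most of it VIM. VIM rose (log2 fold change 0.40, edgeR adjusted p = 0.00793), and the other 5 did not pass: NEFL 0.28, NEFM 0.12, LHX1 0.04, PAX2 -0.24 and GATA3 -0.27. Of 8 markers of other cell types, COL1A1 and COL3A1 had enough reads to be tested and CD3E and UMOD had 0 reads. Their sum ran from 34.8 to 49.99 CPM in the controls and from 41.9 to 47.8 CPM in co-culture, with log2 fold changes of 0.28 for COL1A1 and -0.95 for COL3A1, neither past the threshold. The human DAO gene had 0 reads in all 6 libraries. The origin of the partner cells' DAAO sequence is not given here, so this count cannot show whether partner cells were carried over. The part of any carried-over partner cells in the results was not tested.

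The letters that bear on this group of genes are those of the antioxidant response element, to which NRF2 binds, and the members' matches to them are shown. The core letters searched were TGACNNNGC on both strands of the 300 bases around each RefSeq gene start (250 before, 50 after, GRCh38.p14). Entries were found for 37 of the 47 members. The core was present in promoters of 11 of these 37 genes, or in 12 of their 50 promoter entries, while 13.3% of all 35116 promoter entries held it. In the windows searched, NQO1, GCLC and OSGIN1 held no match to the core, and HMOX1 is not among the 37 genes with an entry. The first site of each entry with a match is given below, read in the direction of the motif, whose letters are in capitals.
GCLM, chr1:93909446-93909474, plus strand: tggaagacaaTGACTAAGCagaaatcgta
EPHX1, chr1:225825266-225825294, plus strand: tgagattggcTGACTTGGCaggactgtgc
GSTA4, chr6:52995275-52995303, minus strand: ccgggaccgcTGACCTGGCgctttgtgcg
GSTP1, chr11:67583736-67583764, plus strand: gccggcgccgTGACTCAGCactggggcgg
GSTO1, chr10:104254656-104254684, plus strand: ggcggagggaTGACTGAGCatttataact
MGST1, chr12:16347135-16347163, plus strand: ggggacatcgTGACAAAGCaaattgtctg
TXNRD1, chr12:104215670-104215698, plus strand: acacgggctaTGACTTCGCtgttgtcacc
TXNRD1, second start, chr12:104286920-104286948, minus strand: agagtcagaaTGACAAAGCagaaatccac
ABCC4, chr13:95301582-95301610, plus strand: gaccgacgggTGACGCGGCgggaggagac
CBR1, chr21:36069855-36069883, minus strand: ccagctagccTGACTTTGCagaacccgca
PIR, chrX:15493289-15493317, plus strand: agcctcaccgTGACTCAGCgcttcgcggc
GPX2, chr14:64942849-64942877, plus strand: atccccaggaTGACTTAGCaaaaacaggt
The sites of GSTP1 and PIR read TGACTCAGC, which holds the AP-1 letters TGACTCA within it. That longer form was present in 0.561% of all promoter entries. A match is a run of letters and not a measured binding site. Among all 14582 tested genes, 4.83% passed the threshold, an adjusted p of 0.05. At that share, 10 genes are too few for a count of 0 to set them apart from other genes. Of the 11 genes with the core, 10 were tested, 5 had a log2 fold change above 0 and 5 below 0, and 0 passed the threshold. Their median log2 fold change was -0.02, with a range from -0.25 to 0.15.

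The members were expressed over a wide range in these cells. Levels between genes are given as CPM per kb of the longest protein-coding transcript in GENCODE 29, as a mean over all 6 libraries. GPX4, which reduces lipid peroxides in membranes, stood highest at 185 CPM per kb. GSTP1, the pi-class glutathione transferase, was next at 175 CPM per kb. The aldose reductase AKR1B1 had 113 CPM per kb and GSTO1, an omega-class transferase, had 109 CPM per kb. GPX1, the cytosolic peroxidase for hydrogen peroxide, had 79.7 CPM per kb. On this scale the classical NRF2 markers lay lower than the genes just named. TXNRD1 was at 51.6, HMOX1 at 10.5, GCLM at 8.54, NQO1 at 3.36 and OSGIN1 at 0.337 CPM per kb. The order depends on the transcript length used, 4277 bases for TXNRD1 and 1002 for GPX4. By CPM alone TXNRD1 was the highest member, at 221.

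At the lower end, 5 members had too few reads to be tested. GPX7 had at most 2 reads in any library and GSTM4 at most 3. AKR1B10 had at most 6 reads and the export pump ABCC3 at most 9. GPX2, the gastrointestinal peroxidase, had 1 read on its own strand over all 6 libraries and 24 on the opposite strand, so an unstranded count there would mostly hold reads of the other strand. A count of 0 allows up to 3 reads, or 0.0828 to 0.157 CPM depending on the library, which covers counting error only.

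**Figure D1:**
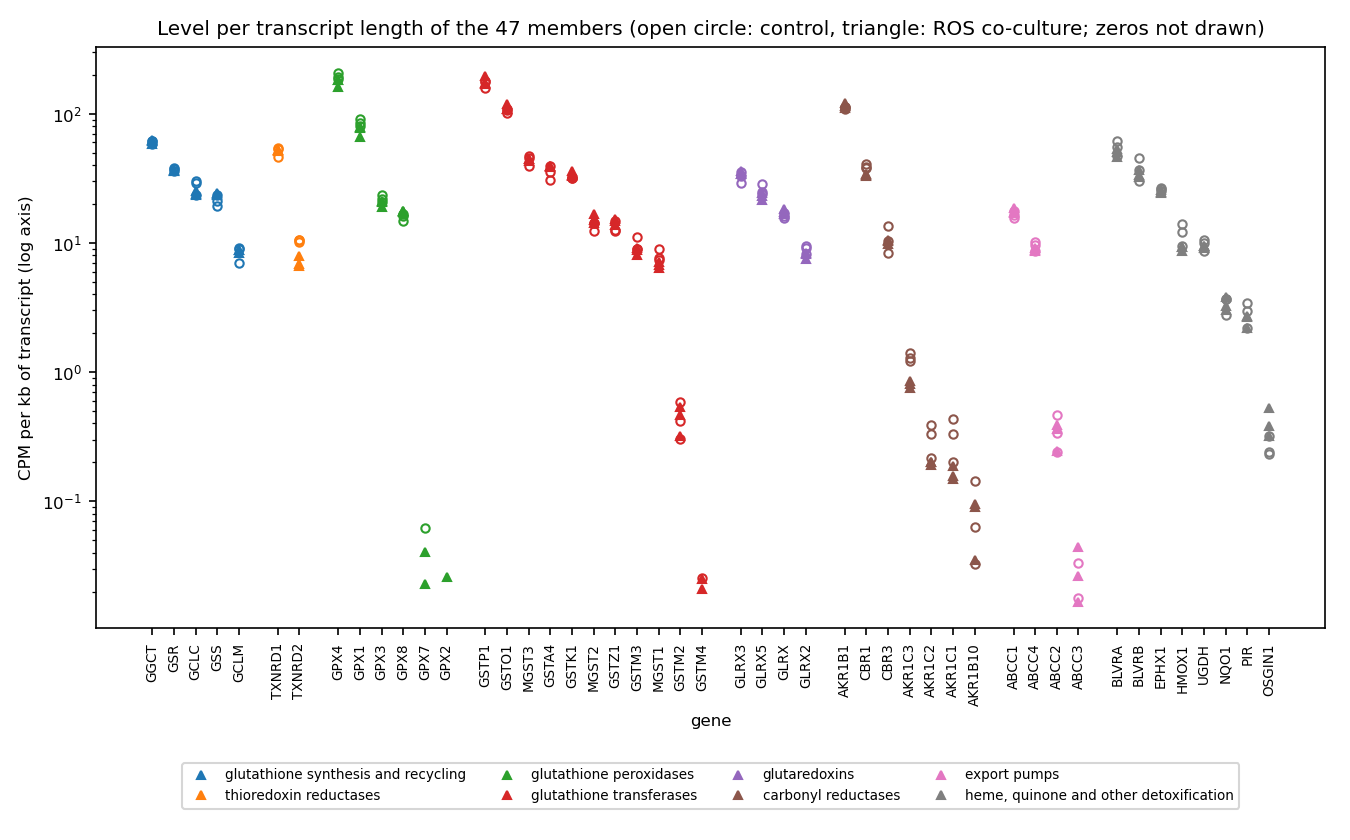
Level of each of the 47 members in CPM per kb of transcript, on a log axis, with open circles for the 3 control libraries and triangles for the 3 ROS co-culture libraries. GPX4 and GSTP1 stand highest at 185 and 175 CPM per kb on average, and GPX7, GPX2, GSTM4, AKR1B10 and ABCC3 lie near or below 0.1 CPM per kb.

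Across the 42 tested members, 1 gene passed an adjusted p of 0.05 in edgeR's quasi-likelihood test, the mitochondrial thioredoxin reductase TXNRD2, which was lower in co-culture, and 0 were higher. Over all 14582 tested genes, 4.83% passed, 2.66% higher and 2.17% lower, so 1 of 42 is a share near or below that of all genes. At an unadjusted p under 0.05 there were 8 of 42 members, against 23.2% of all genes. Those 8 were TXNRD2, CBR1, AKR1C3, HMOX1, AKR1C1, GPX1, GPX4 and GSS, and GSS was the one with a higher level in co-culture. Centred on a median log2 fold change of -0.07, the 42 members had 18 values above and 24 below 0, beside a median of 0.00 over all tested genes. For 32 of the 42 members the 95% interval of the log2 fold change lay wholly between -0.5 and 0.5. Groups that did not overlap were found for 13 of 42 members (4 higher, 9 lower), against 29.3% of all genes (14.3% higher, 15% lower). By direction, the unadjusted p was under 0.05 for 11.7% of all genes higher and 11.5% lower.

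The count of members past the threshold moved with the library left out. Without control library 1 it was 8 (3 higher, 5 lower), in a fit where 20.8% of all genes passed. Without control library 3 it was 2 (5% of all genes), and without co-culture library 3 it was 1 (2.18%). It was 0 without co-culture library 1 (0.831%), without co-culture library 2 (0.503%), without control library 2 (0.44%), and when strand class entered as a batch (0.199%). Total counts gave 2 members (6.05%) and DESeq2 gave 2 (7.31%). The other 5 settings gave 1 member each, TXNRD2: DESeq2-type size factors (4.86%), no filter (4.5%), a filter of 10 reads in 3 libraries (4.82%), unstranded counts (4.46%), and the replicate number as a block (1.12%). Among genes described further on without that value, the strand-class term gave GCLM 0.08, GGCT 0.03, GSTP1 0.03, GSTO1 0.18, GSTK1 0.05, MGST3 0.02 and GSTM2 -0.45. It gave GLRX 0.16, CBR3 -0.03, ABCC4 -0.06, NQO1 -0.15, PIR -0.07 and HAGH -0.29, with none past the threshold.

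**Figure D2:**
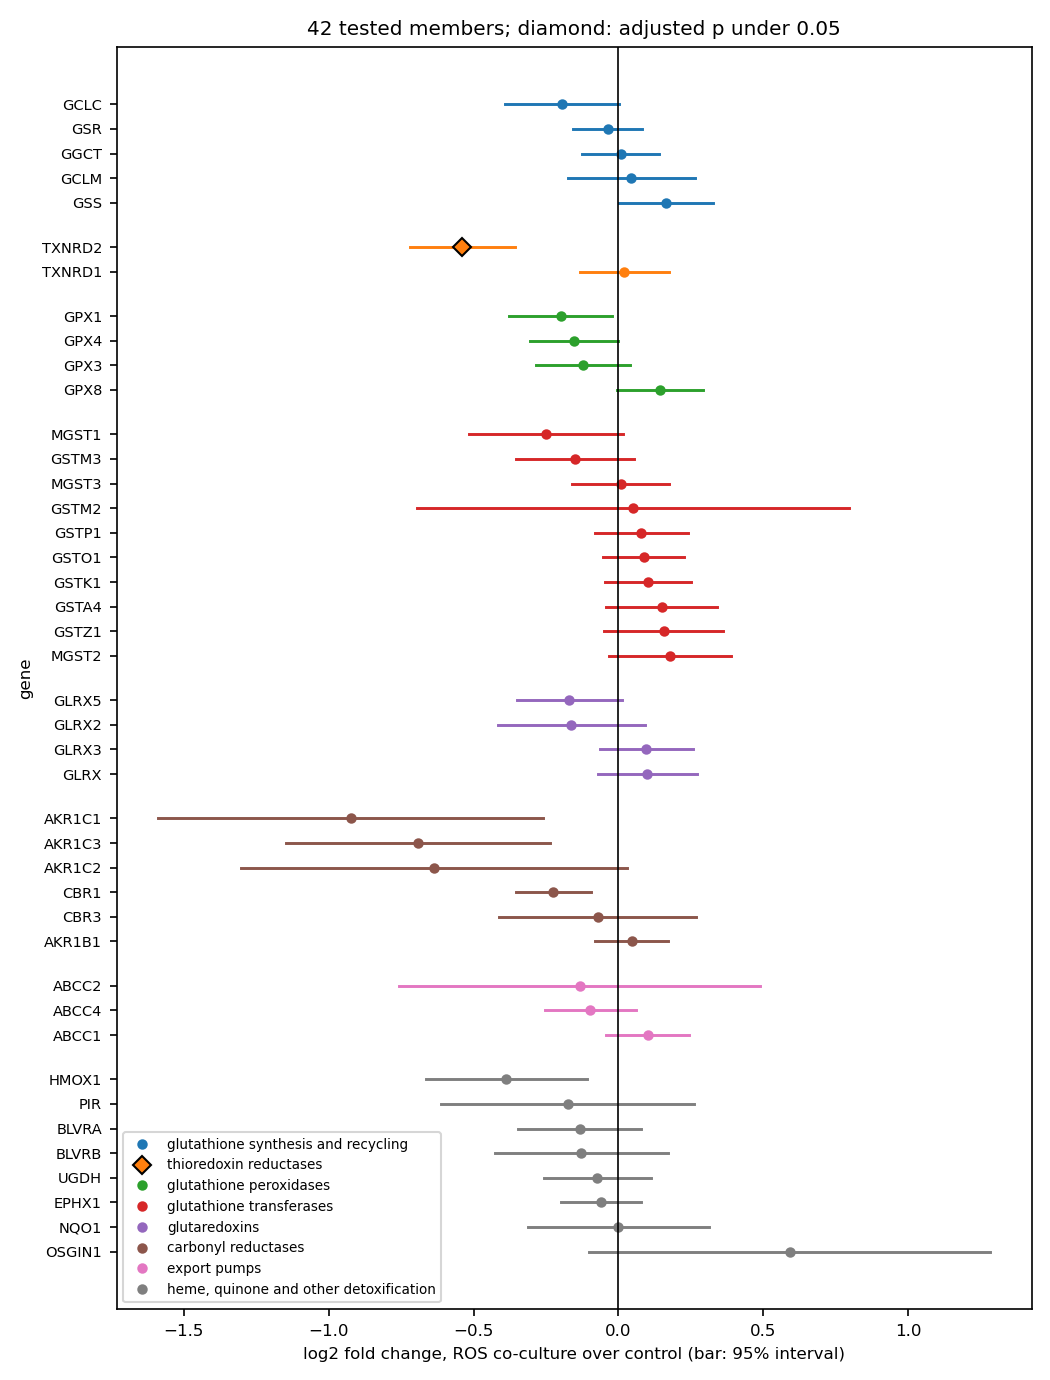
Log2 fold change of ROS co-culture over control for the 42 tested members, grouped by role, with bars for the 95% interval. The diamond marks TXNRD2 at -0.54, the 1 gene with an adjusted p under 0.05, and most of the other intervals include 0.

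The thioredoxin reductases are NADPH-dependent selenoenzymes that keep thioredoxin reduced, TXNRD1 in the cytosol and TXNRD2 in mitochondria. TXNRD2 stood at 32.0, 33.4 and 33.1 CPM in control libraries 1, 2 and 3, and at 21.8, 20.9 and 24.8 CPM in co-culture libraries 1, 2 and 3. The groups did not overlap, and every co-culture library lay below every control. TXNRD2 fell by 31.2% (log2 fold change -0.54, SE 0.08, n = 3 each, edgeR adjusted p = 0.00669). Groups that do not overlap in the lower direction were found for 15% of all tested genes. The call held in 10 of 14 other settings. It was lost on leaving out co-culture 1 (-0.51, edgeR adjusted p = 0.0542), co-culture 2 (-0.49, edgeR adjusted p = 0.0657) or control 2 (-0.53, edgeR adjusted p = 0.0602). The call was also lost with the strand-class term, which compares co-culture library 1 alone with the controls (-0.59).

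TXNRD1, which is a textbook NRF2 target, showed no such difference. It had 197, 227 and 233 CPM in the controls and 223, 221 and 223 CPM in co-culture, so the co-culture libraries lay inside the range of the controls. Its log2 fold change was 0.02, with a 95% interval from -0.13 to 0.17 (edgeR adjusted p = 0.892). The ratio of TXNRD2 to TXNRD1 reads was 16.2%, 14.7% and 14.2% in the controls and 9.75%, 9.46% and 11.2% in co-culture. This ratio restates the values of both genes and is not separate support. An exact permutation test of its log2 gave p = 0.1, the smallest value possible with 3 libraries per group, so that test cannot decide.

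The 150 bases before the first listed start of each reductase gene are shown because TXNRD2 is the member that passed and TXNRD1 the NRF2 target of the pair, with any TGACNNNGC core on either strand in capitals.
TXNRD1, chr12:104215629-104215778, plus strand: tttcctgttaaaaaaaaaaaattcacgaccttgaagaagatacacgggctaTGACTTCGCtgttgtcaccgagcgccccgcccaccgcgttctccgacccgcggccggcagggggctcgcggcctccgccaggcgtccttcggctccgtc
TXNRD2, chr22:19941819-19941968, minus strand: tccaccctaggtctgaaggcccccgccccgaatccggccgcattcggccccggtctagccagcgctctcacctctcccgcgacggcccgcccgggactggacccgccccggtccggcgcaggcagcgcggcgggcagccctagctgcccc
The TXNRD1 stretch held 1 complete match and the TXNRD2 stretch 0. Their G and C content was 61.3% and 77.3%. The absence of these letters says nothing of what binds there or in the rest of the gene.

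In glutathione synthesis and recycling, 0 of 5 genes passed the threshold. GCLC, the catalytic subunit of the rate-limiting ligase, had 89.5, 111 and 115 CPM in the controls and 96.2, 89.4 and 91.1 CPM in co-culture. Control library 1 lay with the co-culture libraries and the other 2 controls lay above them. The log2 fold change was -0.19 (SE 0.09, edgeR adjusted p = 0.22), -0.30 without control library 1 (edgeR adjusted p = 0.000696) and -0.12 without control library 3 (edgeR adjusted p = 0.434). GCLM, the modifier subunit of the same ligase, had 33.8, 43.8 and 44.7 CPM in the controls and 43.1, 40.9 and 42.4 CPM in co-culture, so the groups overlapped. Its log2 fold change was 0.04, with a 95% interval from -0.17 to 0.26 (edgeR adjusted p = 0.823).

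GSS, which adds glycine in the second step, had 63.1, 52.6 and 56.9 CPM in the controls and 63.2, 65.6 and 64.6 CPM in co-culture. The groups did not overlap, but control library 1 was all but level with the lowest co-culture library. The log2 fold change was 0.16 (SE 0.07, edgeR adjusted p = 0.21), 0.23 without control library 1 (edgeR adjusted p = 0.0114) and 0.11 without control library 2 (edgeR adjusted p = 0.525). GSR, glutathione reductase, varied least among these genes, with 116, 119 and 120.3 CPM in the controls and 114, 115 and 117 CPM in co-culture. Its 95% interval ran from -0.16 to 0.08 around a log2 fold change of -0.04. GGCT, a cyclotransferase that degrades gamma-glutamyl peptides, had a log2 fold change of 0.01.

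Of the 6 glutathione peroxidases, 4 were tested and 0 passed. GPX1 had 97.7, 105 and 91.8 CPM in the controls and 75.9, 88.5 and 91.4 CPM in co-culture, a log2 difference of -0.20 (SE 0.08, edgeR adjusted p = 0.164). GPX4 had 193, 206 and 186 CPM in the controls and 161, 182 and 182 CPM in co-culture (-0.15, SE 0.07, edgeR adjusted p = 0.209). For both genes the groups did not overlap, but the highest co-culture library lay close under the lowest control, and co-culture library 1 was the lowest of all. Without it the log2 fold changes were -0.12 for GPX1 and -0.09 for GPX4, neither past the threshold. With the strand-class term, which compares that library alone with the controls, they were -0.37 and -0.28. Co-culture library 1 also had the highest share of multimapping reads, 8.42% against 6.48% to 7.03% in the others, and the part of that in these values was not tested. GPX8, an endoplasmic reticulum member of the family, had 54.5, 52.1 and 48.0 CPM in the controls and 57.6, 57.0 and 56.1 CPM in co-culture (0.14, SE 0.07, edgeR adjusted p = 0.229). Without control library 1 it passed, at 0.19 (edgeR adjusted p = 0.0422), and without control library 3 it was 0.09 (edgeR adjusted p = 0.479). The plasma peroxidase GPX3 had a log2 fold change of -0.12.

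Among the transferases, 10 of 11 genes were tested and 0 passed, with 8 log2 fold changes above 0 and 2 below. The median was 0.08. GSTP1 had 171, 169 and 151 CPM in the controls and 167, 165 and 187 CPM in co-culture, so the groups overlapped (0.08, SE 0.07, edgeR adjusted p = 0.556). The microsomal transferase MGST2 had 18.2, 18.2 and 15.7 CPM in the controls and 21.3, 18.3 and 19.3 CPM in co-culture (0.18, SE 0.10, edgeR adjusted p = 0.294), or 0.30 with the strand-class term and 0.11 without control library 3, past the threshold in neither. Its relative MGST1 had 10.1, 12.0 and 9.90 CPM against 9.41, 9.03 and 8.49 CPM in co-culture (-0.25, SE 0.12, edgeR adjusted p = 0.239).

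GSTA4, an alpha-class enzyme that acts on lipid aldehydes such as 4-hydroxynonenal, had 52.7, 47.3 and 41.0 CPM in the controls and 52.3, 52.2 and 51.5 CPM in co-culture. Control library 1 was the highest of all 6 libraries, and the log2 fold change was 0.15 (edgeR adjusted p = 0.331), or 0.24 without that library (edgeR adjusted p = 0.0201) and 0.06 without control library 3 (edgeR adjusted p = 0.706). GSTO1, GSTK1, GSTZ1, MGST3 and GSTM3 had log2 fold changes of 0.09, 0.10, 0.16, 0.01 and -0.15. GSTM2 was near the detection limit, at 0.522 to 1.01 CPM, and its 95% interval ran from -0.70 to 0.79. Reads of the mu-class genes GSTM2, GSTM3 and GSTM4 are uncertain where the copies are similar, since multimapping reads are left out of the gene counts.

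All 4 glutaredoxins were tested and 0 passed, with 2 log2 fold changes above 0 and 2 below. The mitochondrial GLRX5, which serves iron-sulfur cluster assembly, had 53.0, 46.2 and 44.7 CPM in the controls and 39.7, 42.7 and 45.1 CPM in co-culture (-0.17, SE 0.08, edgeR adjusted p = 0.246). GLRX2, also mitochondrial, differed by -0.16 in log2 (SE 0.12, edgeR adjusted p = 0.428). GLRX3 had 111, 134 and 127 CPM in the controls and 129.9, 130.3 and 138 CPM in co-culture (0.10, SE 0.07, edgeR adjusted p = 0.464). The cytosolic GLRX had a log2 fold change of 0.10. In all 4 genes the groups overlapped. With the strand-class term GLRX5 was -0.27 and GLRX2 -0.10, and without control library 1 GLRX5 was -0.09, none past the threshold.

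The carbonyl reductases, which convert reactive aldehydes and ketones to alcohols, held the largest negative log2 fold changes of all members. Of 6 tested genes, 0 passed the threshold, 5 had a log2 fold change below 0, and in 4 every co-culture library lay below every control, beside 50.4% below 0 and 15% without overlap in the lower direction over all genes. Of those 4 genes, 3 are the AKR1C copies described below, which are similar in sequence and may not be fully separate measurements. CBR1, a broad carbonyl reductase, had 78.6, 75.0 and 73.5 CPM in the controls and 64.8, 64.0 and 65.4 CPM in co-culture, which leaves a gap wider than the spread of either group. Its log2 fold change was -0.22 (SE 0.06, edgeR adjusted p = 0.0538), just outside the threshold. CBR1 passed with total counts (-0.26, edgeR adjusted p = 0.034), with DESeq2 (-0.22, DESeq2 adjusted p = 0.046) and without control library 1 (-0.20, edgeR adjusted p = 0.0186), and over all 14 other settings its adjusted p ran from 0.0186 to 0.377. Unstranded counting gave 78.5% of its strand-specific reads, so part of its reads overlap a gene on the opposite strand, and its unstranded log2 fold change was -0.18.

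The aldo-keto reductases AKR1C1, AKR1C2 and AKR1C3 reduce steroids and lipid aldehydes, and AKR1C1 is a strong NRF2 target in many human cells. AKR1C3 had 2.527, 2.19 and 2.34 CPM in the controls and 1.55, 1.47 and 1.37 CPM in co-culture (-0.69, SE 0.21, edgeR adjusted p = 0.0795). AKR1C1 had 2.88, 2.24 and 1.34 CPM in the controls and 1.05, 0.998 and 1.26 CPM in co-culture (-0.92, SE 0.30, edgeR adjusted p = 0.101). In both genes all co-culture libraries lay below all controls, but control library 3 was close to the co-culture range for AKR1C1.

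AKR1C2 had 1.47, 1.25 and 0.806 CPM in the controls and 0.751, 0.713 and 0.754 CPM in co-culture (-0.64, SE 0.30, edgeR adjusted p = 0.235). The values of these 3 genes rest on few reads, from 15 to 61 per gene and library. The copies are similar in sequence, and multimapping reads are left out of the gene counts. How their reads divide is therefore uncertain, and the 3 genes may not give fully separate measurements. AKR1C3 passed without control library 1 (-0.65, edgeR adjusted p = 0.0449), and AKR1C1 passed without control library 3 (-1.19, edgeR adjusted p = 0.023). AKR1B1 stood at 154 to 159 CPM in the controls and 155 to 169 CPM in co-culture, with a log2 fold change of 0.05. CBR3 overlapped between the groups (-0.07, SE 0.15), and unstranded counting gave 69.0% of its strand-specific reads.

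**Figure D3:**
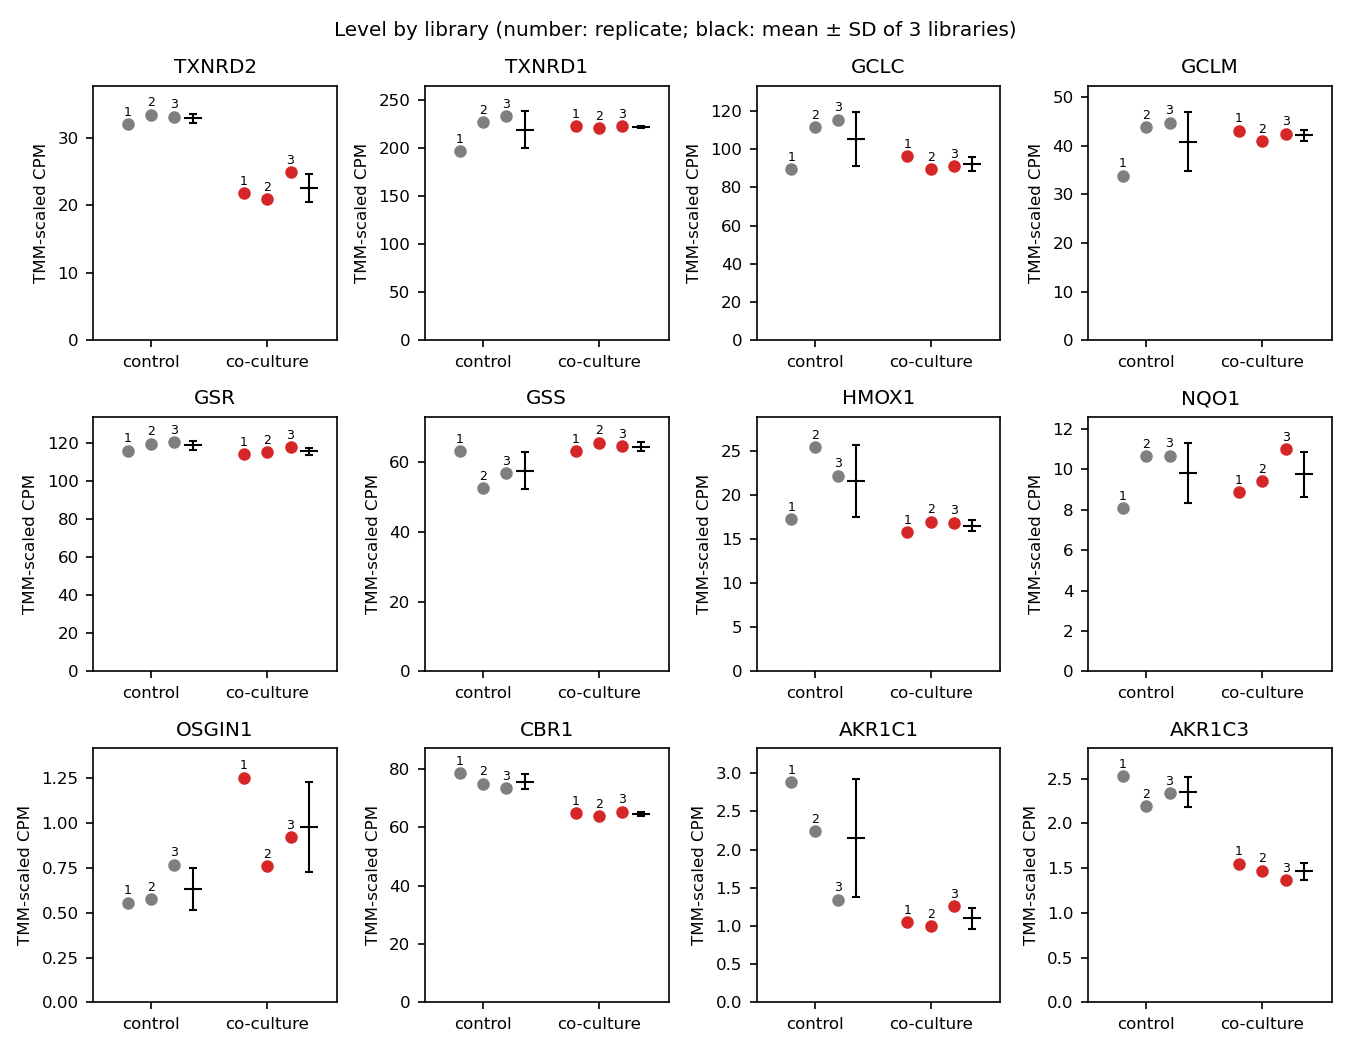
TMM-scaled CPM of 12 members in each of the 6 libraries, with control libraries in grey, co-culture libraries in red, the replicate number above each point and the mean ± SD in black. TXNRD2, CBR1 and AKR1C3 are separated between the groups, whereas for GCLC, GCLM, TXNRD1 and NQO1 control library 1 lies apart from the other 2 controls and the groups overlap.

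The export pumps of the ABCC family carry glutathione conjugates out of the cell. Of the 4 genes, 3 were tested and 0 passed. ABCC1 had 116, 103 and 108 CPM in the controls and 114, 113 and 123 CPM in co-culture (0.10, SE 0.06, edgeR adjusted p = 0.378). ABCC4 had 51.0, 59.7 and 56.4 CPM in the controls and 53.3, 51.0 and 52.0 CPM in co-culture (-0.10, SE 0.07, edgeR adjusted p = 0.451). ABCC2 lay between 1.41 and 2.72 CPM in all 6 libraries, and its interval from -0.76 to 0.49 is too wide to place a change in either direction at this depth; with the strand-class term it was 0.13.

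Of the 8 heme, quinone and other detoxification genes, 0 passed and 7 had a log2 fold change at or below 0. HMOX1, the inducible heme oxygenase, had 17.3, 25.4 and 22.2 CPM in the controls and 15.8, 17.0 and 16.8 CPM in co-culture. Every co-culture library lay below every control, with control library 1 only just above them. The log2 fold change was -0.39 (SE 0.13, edgeR adjusted p = 0.1), and without control library 1 it was -0.52 (edgeR adjusted p = 0.000512). Over the 14 other settings its direction did not change, and the adjusted p ran from 0.000512 to 0.387. The 95% interval of the reported value, from -0.66 to -0.11, lay wholly below 0, which restates an unadjusted p under 0.05. Over all tested genes, 11.5% were lower at that p and 15% were lower without overlap.

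NQO1, the quinone reductase that is among the most used NRF2 readouts, had 8.09, 10.6 and 10.7 CPM in the controls and 8.86, 9.41 and 11.01 CPM in co-culture. The groups overlapped fully, with a log2 fold change of 0.00 and a 95% interval from -0.31 to 0.31 (edgeR adjusted p = 0.999). OSGIN1, an oxidative stress-induced growth inhibitor, had 0.556, 0.574 and 0.767 CPM in the controls and 1.25, 0.760 and 0.922 CPM in co-culture. It had the largest positive log2 fold change of the 42 members, 0.59 (SE 0.31, edgeR adjusted p = 0.287), at a level of about 1 CPM or less, and control library 3 overlapped the co-culture range. With the strand-class term, which compares co-culture library 1 alone with the controls, the log2 fold change was 0.96.

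The biliverdin reductases BLVRA and BLVRB, which act after heme oxygenase, both had a log2 fold change of -0.13 and overlapping groups. BLVRA had 72.0, 64.1 and 55.1 CPM in the controls and 58.5, 53.5 and 61.8 CPM in co-culture (edgeR adjusted p = 0.439). PIR (pirin), the epoxide hydrolase EPHX1 and UGDH, which makes UDP-glucuronate, had log2 fold changes of -0.18, -0.06 and -0.07.

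Control library 1 was low for several of the enzymes most used as NRF2 readouts. HMOX1, NQO1, TXNRD1, GCLM, GCLC, GSR and OSGIN1 were named whatever their values, and control library 1 was the lowest of the 3 controls for 7 of these 7 genes. It lay clear of the other 2 controls for HMOX1, NQO1, TXNRD1, GCLM and GCLC, was only slightly lower for GSR, and was level with control library 2 for OSGIN1. Over the 42 tested members it was the lowest control for 17 genes (40.5%) and the highest for 20 (47.6%), and over all 14582 genes it was the lowest for 42.9% and the highest for 39.5%. BLVRB, for example, ranged from 28.2 to 42.9 CPM among the controls, with control library 1 highest. The median coefficient of variation of the 42 members was 9.01% among the controls and 5.09% among the co-culture libraries, close to the 8.68% and 5.43% of all tested genes. Without control library 1, TXNRD1, GCLM, NQO1 and GSR had log2 fold changes of -0.05, -0.07, -0.11 and -0.05, and none of these 4 passed the threshold.

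**Figure D4:**
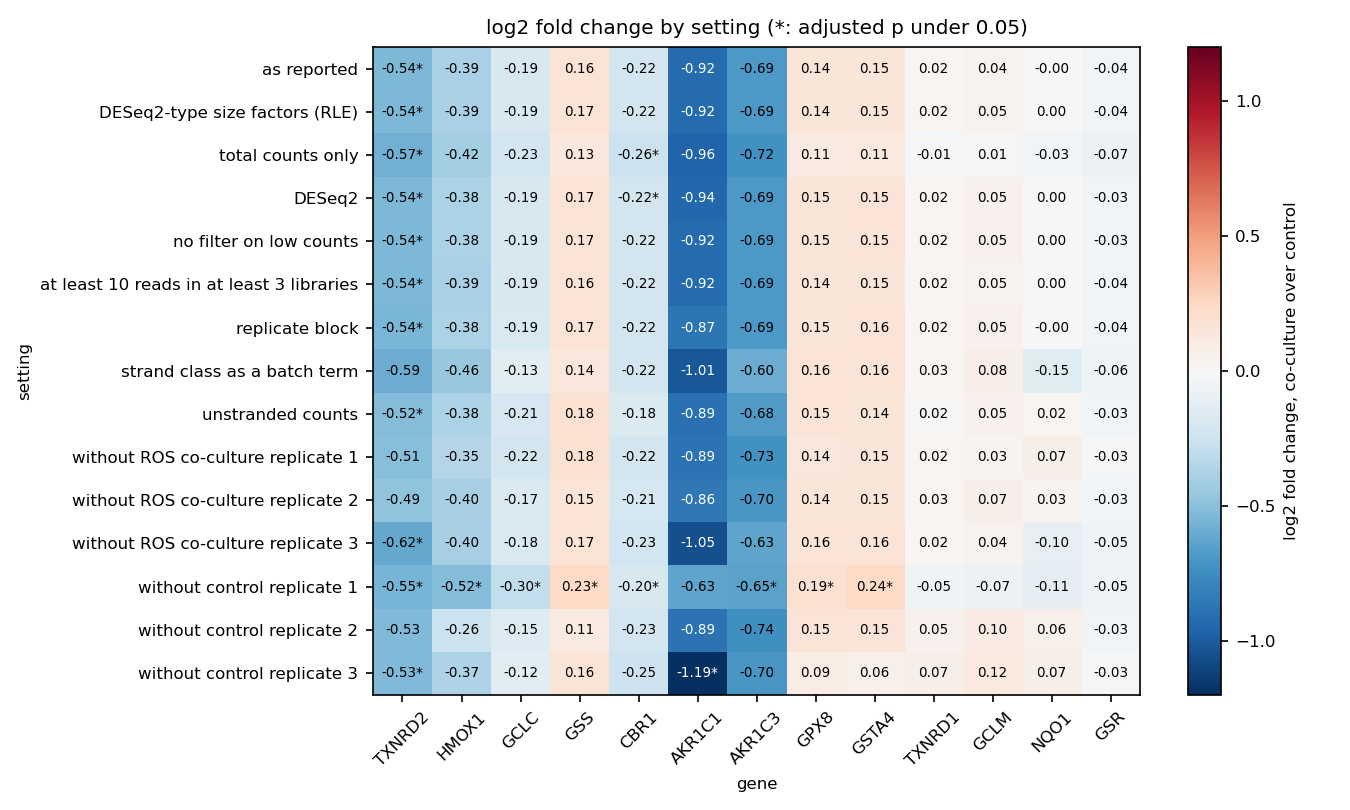
Log2 fold change of 13 members (columns) under the reported analysis and the 14 other settings (rows), with an asterisk at an adjusted p under 0.05. TXNRD2 stays between -0.62 and -0.49 in all 14, while 7 of its neighbours in the plot gain an asterisk without control library 1 and TXNRD1, GCLM, NQO1 and GSR have none in any setting.

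Other genes of the same pathways were counted in the same way. Of 32 further NRF2 target genes and regulators, 28 were tested, 2 were higher and 0 were lower at an adjusted p of 0.05, beside 2.66% higher and 2.17% lower over all genes. At an unadjusted p under 0.05 there were 11 of 28, against 23.2% of all genes, and in 12 of 28 the groups did not overlap (9 higher, 3 lower), against 29.3%. LRP8, a lipoprotein receptor, rose from 46.9, 43.9 and 40.6 CPM in the controls to 65.6, 66.2 and 65.3 CPM in co-culture (0.59, SE 0.07, edgeR adjusted p = 0.00173). It passed in 13 of 14 other settings, missing the threshold with the strand-class term (0.59, edgeR adjusted p = 0.0835). ABCB6, a porphyrin transporter, rose from 23.0, 19.4 and 20.02 CPM to 27.2, 29.7 and 28.2 CPM (0.45, SE 0.09, edgeR adjusted p = 0.0186), and passed in 8 of 14 other settings. It was lost with the strand-class term (0.39, edgeR adjusted p = 0.287), with the replicate number as a block (0.45, adjusted p = 0.0714) and without any 1 of the 3 co-culture libraries or control library 2 (0.40 to 0.48).

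The median log2 fold change of these 28 genes was 0.05, with 19 above and 9 below 0. A list of 28 other genes of glutathione metabolism shares GSTM1, GSTM5, GSTA1 and GSTA2, none of them tested, with the list of 32. Of the 28, 15 were tested and 0 passed, with 7 log2 fold changes above 0 and 8 below. ESD, the esterase that hydrolyses S-formylglutathione, came closest, at 78.6, 80.8 and 78.8 CPM in the controls and 94.97, 90.7 and 91.2 CPM in co-culture (0.22, SE 0.06, edgeR adjusted p = 0.0513). It passed in 4 of 14 other settings. HAGH, the glyoxalase that releases glutathione from S-lactoylglutathione, differed by -0.19 in log2 (SE 0.08, edgeR adjusted p = 0.155).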

How the data were processed

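Per the submitters' processing notes, reads were processed with FastQC and STAR 2.53a on genome build hg18; the annotation release and read trimming are not given in the sources used here. The deposited files hold the authors' raw read counts per gene, unnormalised, 1 file per library, without strand and for each strand. Reverse-strand counts were used, since the kit was stranded and these held nearly all reads. The 4 summary lines stayed out of library sizes; multimapping reads made up 6.48% to 8.42% of reads.

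The whole table was fitted in edgeR 4.0.16 (R 4.3.3): filterByExpr with a minimum count of 10 (14582 genes kept), TMM scaling, robust quasi-likelihood F test with group as the only term, Benjamini-Hochberg adjustment over all tested genes, threshold 0.05. Standard errors are the absolute log2 fold change over the square root of F, and 95% intervals use the test's degrees of freedom. Chi-square per degree of freedom between libraries of a group was 4.73 to 18.5, so each counted as 1 sample. The script was tested on simulated data. The 14 alternatives covered scaling, DESeq2 1.42.0, filters, a replicate block, a strand-class term, unstranded counts and leaving out each library.

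Members and lists were chosen with earlier results of these data known. Named are genes past the threshold, 7 enzymes whatever their values, the 3 smallest p-values per function group, and from the other lists the genes past the threshold and the 2 smallest p-values; other members are given by level or count, with GSTP1, GPX3, GLRX, AKR1B1, AKR1C2, CBR3 and others described for completeness. Promoter sequences are RefSeq's on GRCh38.p14, a later build than the files', so no count was placed by coordinate.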

Additional observations from a re-analysis of the deposited data

How the results depend on the processing

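The number of members past the threshold was 1 and became 2 with total counts (CBR1 and TXNRD2), 2 with DESeq2 1.42.0 (the same genes), 0 with a strand-class batch term, and 0 to 8 when single libraries were left out. The number of all genes past the threshold was 704 and became 164 with the replicate block, 29 with the batch term, and 65 to 3069 when single libraries were left out. With the batch term the group difference rests on co-culture library 1 alone, so those counts cannot be set beside the others. The cause of the other shifts was not tested. Under total counts 310 genes were higher and 572 lower (35.1% higher, against 55.1% as reported), which moved the median of all genes to -0.04, and the members' median from -0.07 to -0.10. Without single libraries the members' median ran from -0.076 to -0.038. Same-numbered libraries did not deviate together (correlations -0.04, -0.09 and -0.09), so the numbers were not taken as pairs; with the replicate block 1 member passed, TXNRD2. NQO1 changed sign among settings, between -0.15 and 0.07, without passing in any. TXNRD1, GCLM, GGCT, MGST3, GSTM2, CBR3, BLVRB and ABCC2 also changed sign without passing in any. Depth limits the members near 1 CPM (GSTM2, OSGIN1, AKR1C1, AKR1C2), which rest on 10 to 57 reads per library and have standard errors of 0.30 to 0.34 in log2.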
